A study of Mus musculus with 31 samples.

Results

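The 10 genes described here make, conjugate, carry and sense bile acids, and each was found by its symbol among the 13677 genes of the liver count table. They are Cyp7a1, Cyp8b1, Cyp27a1 and Cyp7b1 (synthesis), Baat (conjugation), Abcb11 (export), Slc10a1 and Slco1b2 (uptake) and Nr0b2 and Nr1h4 (regulation). All 10 of the listed symbols were present in liver, and 6 were present among the 15987 genes of epididymal white adipose tissue (eWAT).

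RNA was sequenced from the liver and eWAT of wild-type C57BL/6 males of the F1 generation at 24 weeks of age. Every animal ate chow until week 6 and the diet called LFD for the next 18 weeks, controls included. The diet tag of a sample (LFD, HFD or HFLFD; LF, HF and HFLF below) cannot therefore be the animal's own diet and is read here as its father's arm, though the labels do not say so. There were 15 livers (4 LF, 5 HF, 6 HFLF) and 16 eWAT samples (4 LF, 6 HF, 6 HFLF), each named by its arm and the label's own number.

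Hepatocytes make bile acids from cholesterol by a classic route, which Cyp7a1 starts, and an alternative route, which Cyp27a1 and Cyp7b1 open. Cyp8b1 adds the hydroxyl group that yields cholic acid, and Baat joins bile acids to taurine or glycine. Abcb11 pumps the conjugates into bile, while Slc10a1 and Slco1b2 take up bile acids from portal blood. Bile acids activate the nuclear receptor FXR, encoded by Nr1h4, which raises Abcb11 and Nr0b2, and the Nr0b2 product SHP in turn represses Cyp7a1 and Cyp8b1. Cyp7a1 also follows the daily clock and feeding.

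RefSeq promoter windows were held for 7 of the 10 genes, all but Cyp7a1, Cyp7b1 and Baat. The 250 bases before the start of 4 of them are shown (GRCm38.p6), because Cyp8b1, Abcb11 and Nr0b2 varied most among the genes with a window and Slco1b2 carries the same kind of repeat as Abcb11. Capitals mark matches, on either strand, to the motifs searched. These were an inverted repeat of the type that FXR binds (AGGNCANTGNCCT), a core bound by LRH-1 (CAAGGNCA), a core bound by HNF4 (CAAAGTCCA) and the E-box CACGTG. The windows lie at chr9:121916306-121916555 (minus strand) for Cyp8b1, chr2:69342617-69342866 (minus) for Abcb11, chr6:141629268-141629517 (plus) for Slco1b2 and chr4:133553126-133553375 (plus) for Nr0b2.
Cyp8b1: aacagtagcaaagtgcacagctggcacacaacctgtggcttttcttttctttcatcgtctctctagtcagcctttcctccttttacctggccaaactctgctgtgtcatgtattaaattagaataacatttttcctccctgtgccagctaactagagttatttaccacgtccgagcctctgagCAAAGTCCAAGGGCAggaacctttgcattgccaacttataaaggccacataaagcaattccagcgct
Abcb11: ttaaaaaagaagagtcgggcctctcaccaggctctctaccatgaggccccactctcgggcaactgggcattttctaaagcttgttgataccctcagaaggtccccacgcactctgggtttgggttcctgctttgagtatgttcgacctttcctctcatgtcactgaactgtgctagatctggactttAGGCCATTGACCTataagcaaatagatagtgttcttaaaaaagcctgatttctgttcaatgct
Slco1b2: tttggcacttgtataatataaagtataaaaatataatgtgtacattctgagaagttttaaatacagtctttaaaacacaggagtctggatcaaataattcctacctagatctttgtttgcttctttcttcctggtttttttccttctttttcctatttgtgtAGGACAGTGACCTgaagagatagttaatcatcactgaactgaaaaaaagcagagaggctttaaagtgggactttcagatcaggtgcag
Nr0b2: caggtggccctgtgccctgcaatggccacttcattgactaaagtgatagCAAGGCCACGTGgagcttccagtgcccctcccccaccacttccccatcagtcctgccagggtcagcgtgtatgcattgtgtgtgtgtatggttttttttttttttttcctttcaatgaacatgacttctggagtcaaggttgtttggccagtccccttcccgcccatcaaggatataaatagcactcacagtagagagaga

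The repeat stood at -63 to -51 from the start of Abcb11 and at -88 to -76 in Slco1b2. It was present in 28 of all 32851 RefSeq promoter windows of this length (0.0852%). In Cyp8b1 an HNF4 core at -67 to -59 overlapped an LRH-1 core at -60 to -53. In Nr0b2 an LRH-1 core at -201 to -194 overlapped an E-box at -195 to -190. Of all windows, 5.53% held the LRH-1 core, 0.384% the HNF4 core and 6.02% the E-box. The windows of Cyp27a1, Slc10a1 and Nr1h4 held none of these letters. A match describes the sequence and was not tested as a binding site.

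Depth ran from 9225373 to 17268415 counts per library in liver. Levels are CPM, counts scaled to library size with trimmed means of M values (TMM), and every one of the 10 genes had at least 87 counts in every liver library. Differences are log2 fold changes ± SE from edgeR's quasi-likelihood test, with p-values adjusted by Benjamini and Hochberg over all genes of the tissue. No label says that samples came from separate litters, so p-values measure the spread between these samples only. Gene positions are those of GENCODE M21 on GRCm38. Hepatocyte markers, all 8 of 8 measured, summed to 87663 to 101573 CPM in LF, 89482 to 116717 in HF and 85334 to 119136 in HFLF. HFLF 4 stood apart: it was the lowest or highest of the 15 libraries for 30.1% of the 7945 genes above 10 CPM, against 6.51% to 19.1% for each other library. In bulk tissue, fewer cells of a type and less RNA per cell cannot be told apart.

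No gene of the set differed between arms past the threshold, whereas single animals differed widely in Cyp7a1, Nr0b2, Cyp7b1 and Cyp8b1. In HF against LF, 4 of the 10 were higher, in HFLF against LF 8, and in HFLF against HF 7, where 49.4%, 50.1% and 50.9% of all liver genes were higher. The median log2 difference of the 10 was -0.06, 0.11 and 0.06 in the same order, against 0.0 for all genes in each comparison. With edgeR 0 of the 10 passed an adjusted p of 0.05 in any comparison, and 0.0% of all genes passed it in each. At an unadjusted p below 0.05 the counts were 1 (Baat), 0 and 1 (Cyp8b1) of 10, against 3.6%, 5.47% and 1.86% of all genes. DESeq2 gave 1 of 10 at that level in each comparison, and limma voom gave 0, 1 and 1. Over 25 other fits per comparison, 0 of the 10 passed an adjusted p of 0.05, and the smallest adjusted p was 0.823, 0.271 and 0.999. The arms overlapped for all 10 genes in all 3 comparisons, while 1.34%, 0.943% and 0.19% of all genes had arms that did not overlap. HF against LF and HFLF against LF share the 4 LF libraries, so the values of one do not support the other.

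**Figure D1:**
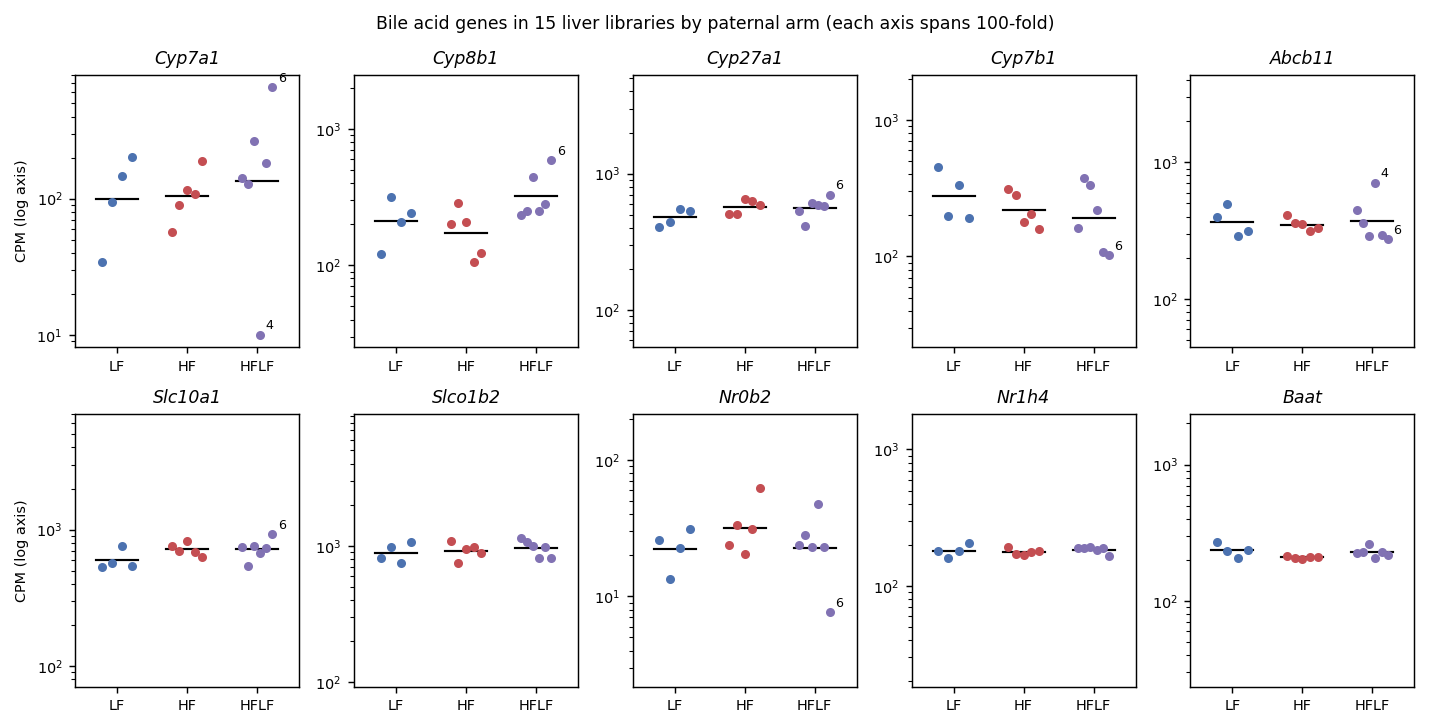
CPM of the 10 genes in each of the 15 liver libraries (log axis, 100-fold on each panel), by paternal arm; points are libraries, bars are means of log2 CPM, and 4 and 6 mark HFLF 4 and HFLF 6 where they were the lowest or highest library. Cyp7a1 ran from 10.1 to 653 CPM within the HFLF arm alone, while Nr1h4 stayed between 160 and 208 CPM over all libraries.

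Cyp7a1 (ENSMUSG00000028240, chr4:6265612-6275633, minus strand), the rate-limiting enzyme of the classic route, had the widest range of the 10. Its levels were 34.6, 94.6, 147 and 201 CPM in LF 1, 2, 3 and 6, and 56.8, 89.9, 115, 108 and 189 CPM in HF 1, 2, 3, 5 and 6. In HFLF the lowest was 10.1 CPM (HFLF 4), the median 162 and the highest 653 (HFLF 6). The lowest and highest of all 15 libraries were thus both in the HFLF arm, and LF and HF lay inside its range. The highest level was 64.7-fold the lowest, and the within-arm SD of log2 CPM was 1.45, above that of 99.8% of all liver genes (median 0.24).

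Mean Cyp7a1 was 119 ± 71.3 CPM in LF (SD, n = 4), 112 ± 48.6 in HF (n = 5) and 230 ± 223 in HFLF (n = 6). The log2 difference was -0.10 ± 0.80 in HF against LF (edgeR, adjusted p = 1.0), 0.95 ± 0.79 in HFLF against LF (adjusted p = 0.904) and 1.04 ± 0.74 in HFLF against HF (adjusted p = 1.0). The HFLF differences moved with the library left out, from 0.29 to 1.32 against LF and from 0.38 to 1.32 against HF. Both lowest values were those without HFLF 6 (0.29 ± 0.70 and 0.38 ± 0.66), and without HFLF 4 the unadjusted p of HFLF against HF was below 0.05 (adjusted p = 1.0 in edgeR). In limma voom, which fits log values, they were 0.43 and 0.37 with all libraries. The 95% normal interval of the HFLF against LF difference ran from -0.60 to 2.50.

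Cyp8b1 (ENSMUSG00000050445, chr9:121914356-121916305, minus strand), which sets the share of cholic acid, had its 2 highest levels in HFLF. It stood at 121, 318, 208 and 243 CPM in LF 1, 2, 3 and 6, and at 200, 288, 207, 106 and 122 CPM in HF 1, 2, 3, 5 and 6. The HFLF libraries had a lowest level of 234 CPM (HFLF 1), a median of 266 and a highest of 589 (HFLF 6), next to 446 in HFLF 3. All 6 HFLF libraries were above 4 of the 5 HF libraries, and HF 2 overlapped them. The log2 difference of HFLF against HF was 0.89 ± 0.33 (adjusted p = 1.0 in edgeR, the only one of the 10 below 0.05 unadjusted in this comparison), with means of 342 ± 145 and 184 ± 73.4 CPM. It stayed between 0.66 and 1.11 when each of the 15 libraries was left out in turn, and was 0.66 ± 0.31 without HFLF 6, where the unadjusted p rose above 0.05. Against LF (223 ± 81.9 CPM) the HFLF value was 0.62 ± 0.36, and 0.39 ± 0.33 without HFLF 6. HF against LF was -0.27 ± 0.36.

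Cyp27a1 (ENSMUSG00000026170, chr1:74713574-74737892, plus strand), the mitochondrial sterol 27-hydroxylase of the alternative route, was steady by comparison. Levels were 404, 446, 554 and 534 CPM in LF 1, 2, 3 and 6, 504 to 653 CPM in HF with a median of 591, and 410 to 702 CPM in HFLF with a median of 583. LF 1, LF 2 and HFLF 2 lay below every HF library, HFLF 6 lay above every one, and the other libraries overlapped. The log2 difference was 0.25 ± 0.14 in HF against LF and 0.24 ± 0.14 in HFLF against LF, with edgeR adjusted p of 1.0 and 0.868. Between HFLF and HF it was -0.02 ± 0.13. Cyp27a1 had a within-arm SD of 0.22 on log2 CPM. The median was 0.24 over all liver genes and 0.18 over those of at least 10 CPM. Of the latter, 69.0% had a smaller SD than Cyp27a1.

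Cyp7b1 (ENSMUSG00000039519, chr3:18071950-18243338, minus strand), the oxysterol 7-hydroxylase that follows Cyp27a1 and is known for higher levels in male than female mouse liver, varied 4.45-fold. The LF libraries 1, 2, 3 and 6 held 455, 199, 335 and 193 CPM, and HF 1, 2, 3, 5 and 6 held 310, 283, 179, 205 and 158 CPM. HFLF spanned 102 CPM (HFLF 6) to 376 (HFLF 2), with a median of 191. Each arm thus held both high and low animals. The log2 difference was -0.38 ± 0.41 in HF against LF and -0.45 ± 0.39 in HFLF against LF, and these became -0.10 ± 0.43 and -0.16 ± 0.41 without LF 1, the highest library. HFLF against HF was -0.07 ± 0.37.

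Baat (ENSMUSG00000039653, chr4:49489422-49506557, minus strand) was among the steadiest genes, with a within-arm SD of 0.11 on log2 CPM (5.88% of liver genes had a smaller one). It read 271, 233, 207 and 237 CPM in LF 1, 2, 3 and 6, and 213, 206, 204, 209 and 211 CPM in HF 1, 2, 3, 5 and 6. In HFLF it ran from 206 to 261 CPM, with a median of 227. LF 3 fell inside the HF range, and the other 3 LF libraries were above it. HF against LF was -0.18 ± 0.09 (adjusted p = 1.0 in edgeR), and -0.12 ± 0.09 without LF 1, where the unadjusted p was no longer below 0.05. HFLF against LF was -0.06 ± 0.08, and HFLF against HF was 0.13 ± 0.08.

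Abcb11 (ENSMUSG00000027048, chr2:69238282-69342616, minus strand), the canalicular bile salt export pump, was set apart by a single library. LF 1, 2, 3 and 6 stood at 397, 494, 288 and 316 CPM, and HF 1, 2, 3, 5 and 6 at 410, 356, 350, 311 and 328 CPM. HFLF ran from 272 CPM (HFLF 6) to 710 (HFLF 4), with a median of 327, and the next highest HFLF library was at 447. The library with the least Cyp7a1 thus had the most Abcb11, and that with the most Cyp7a1 had the least Abcb11. HFLF against LF was 0.08 ± 0.24 and became -0.17 ± 0.16 without HFLF 4, and HFLF against HF was 0.17 ± 0.23 and became -0.08 ± 0.16. HF against LF was -0.09 ± 0.25. Exons of Abcb11 share 2.64% of their bases with the antisense gene Gm13613 and 0.369% with the pseudogene Gm13614, neither of which is in the liver table, and the strand setting of the counting is not given in the sources used here.

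Slc10a1 (ENSMUSG00000021135, chr12:80953183-80968705, minus strand), the sodium-dependent uptake carrier NTCP, had a median of 695 CPM in HF and 739 in HFLF, against 556 in LF. The LF values were 537, 573, 753 and 539 CPM in LF 1, 2, 3 and 6, and the HF values were 765, 695, 823, 691 and 633 CPM in HF 1, 2, 3, 5 and 6. HFLF ran from 542 CPM (HFLF 2) to 928 (HFLF 6). LF 3 stood inside the HF range, and the other 3 LF libraries were below it. The log2 difference was 0.26 ± 0.14 in HF against LF and 0.28 ± 0.14 in HFLF against LF, with edgeR adjusted p of 1.0 and 0.868. Without LF 3 they were 0.39 ± 0.14 and 0.41 ± 0.14, and both had an unadjusted p below 0.05. HFLF against HF was 0.02 ± 0.13.

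Slco1b2 (ENSMUSG00000030236, chr6:141629518-141686646, plus strand), the organic anion carrier OATP1B2, had means of 902 ± 142 CPM in LF, 926 ± 121 in HF and 968 ± 134 in HFLF. Values spanned 751 (LF 3) to 1063 CPM (LF 6), 751 (HF 2) to 1078 (HF 1) and 810 (HFLF 4) to 1144 (HFLF 1), and the arms overlapped over most of that span. The log2 differences were 0.04 ± 0.13, 0.10 ± 0.13 and 0.06 ± 0.12, in the order HF against LF, HFLF against LF and HFLF against HF. Slco1b2, whose window holds the same kind of repeat as that of Abcb11, ranged 1.52-fold, against 2.61-fold for Abcb11.

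Nr0b2 (ENSMUSG00000037583, chr4:133553376-133556536, plus strand), encoding the repressor SHP, was the least expressed of the 10 and varied 8.1-fold. It was at 25.8, 13.4, 22.6 and 31.1 CPM in LF 1, 2, 3 and 6, and at 23.8, 33.3, 20.6, 31.3 and 61.9 CPM in HF 1, 2, 3, 5 and 6. HFLF ran from 7.64 CPM (HFLF 6) to 47.8 (HFLF 4), with a median of 23.4. HF 6 was the highest of all, and the 2 extremes of Cyp7a1 were the extremes of Nr0b2 within HFLF, in the opposite order. HF against LF was 0.55 ± 0.43 and became 0.22 ± 0.41 without HF 6. HFLF against HF was -0.42 ± 0.39 and became -0.09 ± 0.37 without it. HFLF against LF was 0.13 ± 0.42, and -0.15 ± 0.39 without HFLF 4.

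Nr1h4 (ENSMUSG00000047638, chr10:89454234-89533585, minus strand), encoding FXR itself, was the steadiest gene of the set. Its levels were 180, 160, 179 and 208 CPM in LF 1, 2, 3 and 6, 169 to 192 CPM in HF with a median of 177, and 166 to 193 CPM in HFLF with a median of 189. The within-arm SD was 0.10 on log2 CPM, and 4.3% of liver genes had a smaller one. The log2 differences were -0.03 ± 0.08, 0.03 ± 0.08 and 0.06 ± 0.08 in HF against LF, HFLF against LF and HFLF against HF. Thus the receptor varied 1.3-fold across animals in which its known target Nr0b2 varied 8.1-fold.

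**Figure D2:**
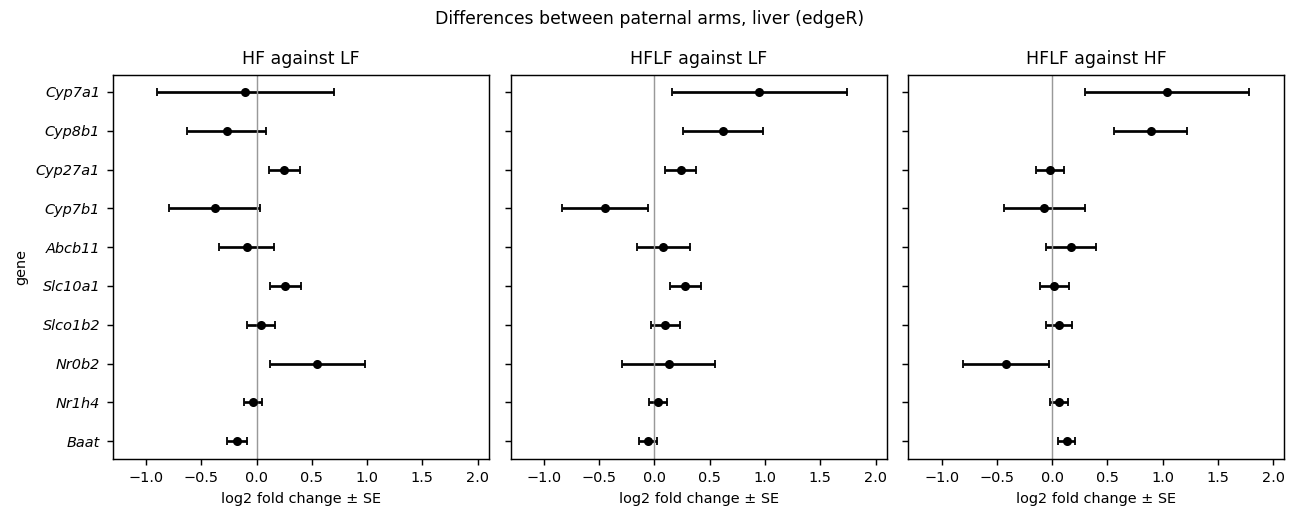
Log2 fold change ± SE (edgeR) of each of the 10 genes in liver, in HF against LF, HFLF against LF and HFLF against HF; the vertical line is 0. The widest bars belong to Cyp7a1 (SE 0.74 to 0.80), and no gene passed an adjusted p of 0.05.

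**Figure D3:**
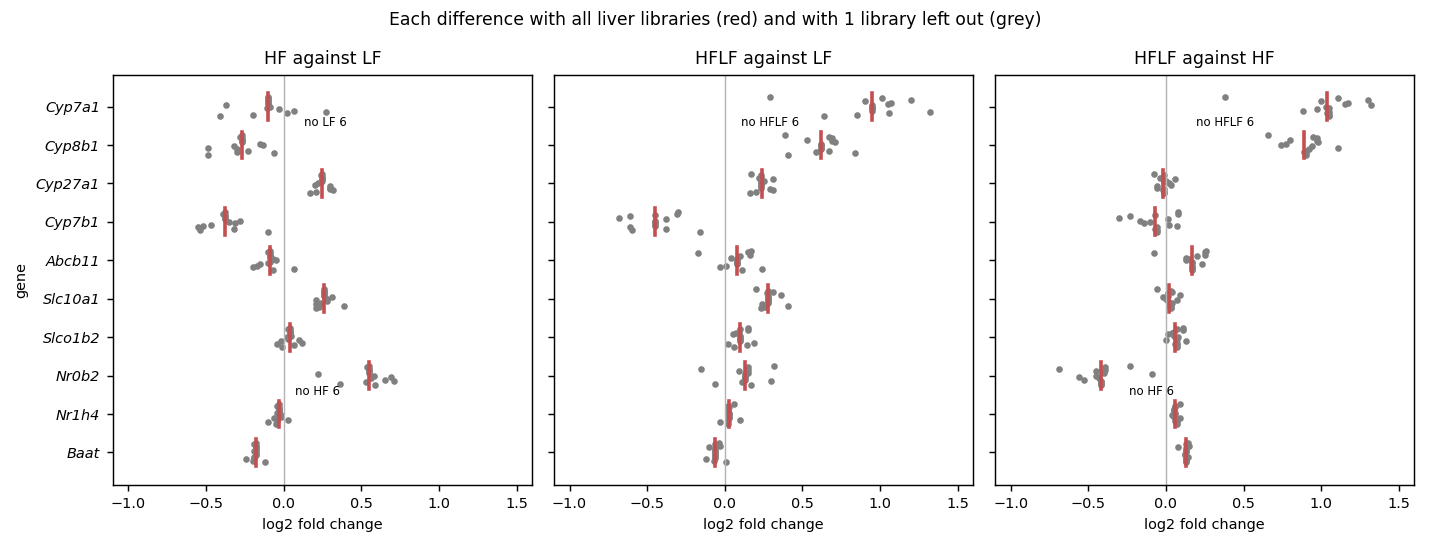
Log2 fold change of each gene with all 15 liver libraries (red bar) and with each library left out in turn (grey points), for the 3 comparisons; a label names the omitted library where it moved the value by more than 0.3. Cyp7a1 in HFLF against LF moved from 0.95 to 0.29 without HFLF 6.

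Relative to exon length the order of the 10 genes was led by the uptake gene Slc10a1. Mean CPM per kb of exon over the 15 livers was 315 ± 51.5 for Slc10a1, 253 ± 39.7 for Cyp27a1 and 190 ± 25.4 for Slco1b2 (SD). Next came Cyp8b1 at 132 ± 64.4 CPM per kb, Baat at 115 ± 10.5 and Cyp7b1 at 111 ± 47.5. Nr1h4 at 78.8 ± 5.4, Abcb11 at 72.8 ± 21.8, Cyp7a1 at 38.6 ± 36.3 and Nr0b2 at 24.6 ± 11.6 CPM per kb closed the order. Slc10a1 exceeded Cyp27a1, and Cyp27a1 exceeded Slco1b2, in 14 of 15 libraries each. Neighbours in the middle and at the end did not differ beyond their spread: Baat exceeded Cyp7b1 in 9 of 15 libraries, Cyp7b1 exceeded Nr1h4 in 10, and Cyp7a1 exceeded Nr0b2 in 9.

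The genes were then compared with each other across the 15 livers, as 45 pairs of the set plus 12 pairs with clock genes or male-biased genes. Of these 57 relations of log2 CPM, 4 had an adjusted p below 0.05 by Pearson's r and 3 by Spearman's rho (two-sided, 100000 permutations each). Cyp7a1 and Abcb11 had r = -0.83 (permutation p = 0.00032, adjusted p = 0.00608) and rho = -0.78 (p = 0.0011, adjusted p = 0.0209). The sign was the same within each arm, at -0.53 in LF, -0.78 in HF and -0.94 in HFLF, and these values within arms were not tested. Without HFLF 4 and HFLF 6, the libraries farthest from the median of Cyp7a1, r was -0.58 (permutation p = 0.0357, adjusted p = 0.407). Without HFLF 4 alone r was -0.66 (permutation, adjusted p = 0.0831). The call was lost both times, but fewer libraries also weaken a test. A lost call thus does not show that the omitted libraries carry a relation. With arm means subtracted and permutation within arms, r was -0.86 (adjusted p = 0.0515), past the threshold no longer.

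Cyp27a1 and Slc10a1 varied together, with r = 0.78 (permutation p = 0.00066, adjusted p = 0.0094) and rho = 0.62 (p = 0.0155, adjusted p = 0.176). Within arms r was 0.61 in LF, 0.13 in HF and 0.94 in HFLF. Without LF 1 and HFLF 2 it was 0.63 (permutation p = 0.0223, adjusted p = 0.407), and the call was lost. Without LF 1 alone r was 0.72 (permutation, adjusted p = 0.052), and without HFLF 6 alone it was 0.71 (permutation, adjusted p = 0.0661). With arm means subtracted and permutation within arms it was 0.71 (adjusted p = 0.159), and without HFLF 4 and HFLF 6 it was 0.72 (permutation, adjusted p = 0.182), so neither kept the call. LF 1 had the lowest Cyp27a1 and Slc10a1 and the highest Cyp7b1 and Baat of all livers. It also had the highest cholangiocyte marker sum, 394 CPM over the 6 of 7 markers measured, where the arms ran from 63.2 to 394 in LF, 47.6 to 107 in HF and 53.8 to 137 in HFLF. Spp1 alone made up 349 CPM of it, against 21.5 to 93.7 CPM in the other livers, while Krt19 (1.19 CPM) and Krt7 (1.13 CPM) were not highest in LF 1, so the sum rests on 1 gene. Its part in these values was not tested beyond the differences without LF 1 given above.

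Cyp7a1 and its repressor gene Nr0b2 had no relation past the threshold. Over all livers r was -0.49 (permutation p = 0.0675, adjusted p = 0.418) and rho -0.32 (p = 0.248, adjusted p = 0.701). The r of this pair was -0.87 within HFLF, but 0.13 within LF and 0.71 within HF, and 0.19 (permutation p = 0.505) without HFLF 4 and HFLF 6. The values within these small arms were not tested, and leaving out both ends of Cyp7a1 also narrows its range. Cyp8b1 and Nr0b2 had r = -0.63 (permutation p = 0.0124, adjusted p = 0.101), negative in each arm at -0.55, -0.46 and -0.81, and rho = -0.40 (p = 0.143, adjusted p = 0.48). Without HF 5 and HFLF 6 it was -0.43 (permutation p = 0.137). Cyp7a1 and Cyp8b1, both enzymes of cholic acid synthesis, had r = 0.43 (permutation p = 0.113, adjusted p = 0.418), rho = 0.35 (p = 0.206, adjusted p = 0.652) and 0.44 (p = 0.134) without HFLF 4 and HFLF 6.

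**Figure D4:**
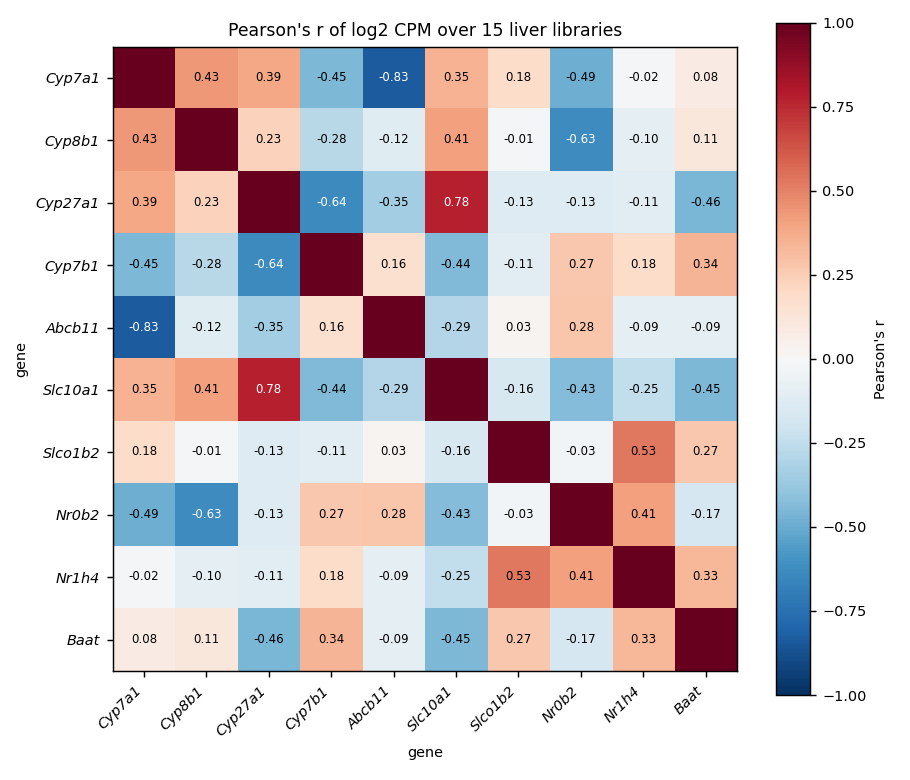
Pearson's r of log2 CPM for each pair of the 10 genes over the 15 liver libraries (colour scale from -1 to 1). The strongest negative value is -0.83 for Cyp7a1 with Abcb11 and the strongest positive one is 0.78 for Cyp27a1 with Slc10a1.

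Cyp7a1 was compared with 4 clock genes and passed the threshold with 1 of them. Cyp8b1 did not pass it with any of these, at r of -0.01 (Dbp), -0.08 (Nr1d1), -0.13 (Per2) and 0.08 (Arntl). Nr1d1, which encodes the clock repressor REV-ERBα, had r = -0.75 with Cyp7a1 (permutation p = 0.00026, adjusted p = 0.00608) and rho = -0.82 (p = 0.00038, adjusted p = 0.0162). Within arms r was -0.56 in LF, -0.92 in HF and -0.88 in HFLF. Without HFLF 4 and HFLF 6 it was -0.65 (permutation p = 0.0132, adjusted p = 0.375), and the adjusted call was lost. Per2 had r = 0.66 with Cyp7a1 (permutation p = 0.00843, adjusted p = 0.0922) and rho = 0.66 (p = 0.00887, adjusted p = 0.126), and 0.43 without the same libraries (p = 0.148). Dbp had r = 0.16 (permutation p = 0.57, adjusted p = 0.892) and rho = -0.20, and Arntl had r = -0.30 (permutation p = 0.274, adjusted p = 0.675) and rho = 0.13. Within LF, HF and HFLF their r differed in sign, at -0.41, -0.88 and 0.58 for Dbp and 0.52, 0.69 and -0.60 for Arntl.

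HFLF 4, the liver with the least Cyp7a1, was lowest of all 15 for 5 of the 9 measured clock genes and highest for 2. It was also lowest or highest for 30.1% of the 7945 genes above 10 CPM. Per3 was at 11.3 CPM there, against 30.5 to 80.7 in the other libraries. Nr1d1 was at 163 CPM in HFLF 4 and at 38.0 in HFLF 6, the liver with the most Cyp7a1. Arntl, a core activator of the clock, was at 5.75 CPM in HFLF 4 and at 2.99 or less elsewhere. The clock list summed to 709 to 1048 CPM in LF, 728 to 917 in HF and 526 to 933 in HFLF. The hour of tissue collection is not given in the sources used here, and its part in the Cyp7a1 levels was not tested.

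Cyp7b1 moved with Hsd3b5, a steroid dehydrogenase typical of male liver, at r = 0.81 (permutation p = 0.00017, adjusted p = 0.00608) and rho = 0.80 (p = 0.00057, adjusted p = 0.0162). The value was 0.82, 0.89 and 0.87 within LF, HF and HFLF, and 0.79 (permutation p = 0.00112, adjusted p = 0.0638) without LF 1 and HFLF 6. It did not extend to the other male-biased genes compared: r with Cyp7b1 was -0.08 for Elovl3, -0.01 for Cyp4a12a and 0.07 for Slco1a1. The sum of 8 male-biased genes ran from 6971 to 10361 CPM in LF, 5582 to 8727 in HF and 4444 to 8445 in HFLF. That of the 4 female-biased genes measured, of 8 listed, ran from 23.2 to 127, 67.3 to 117 and 32.9 to 162 CPM. Their part in the Cyp7b1 values was not tested.

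**Figure D5:**
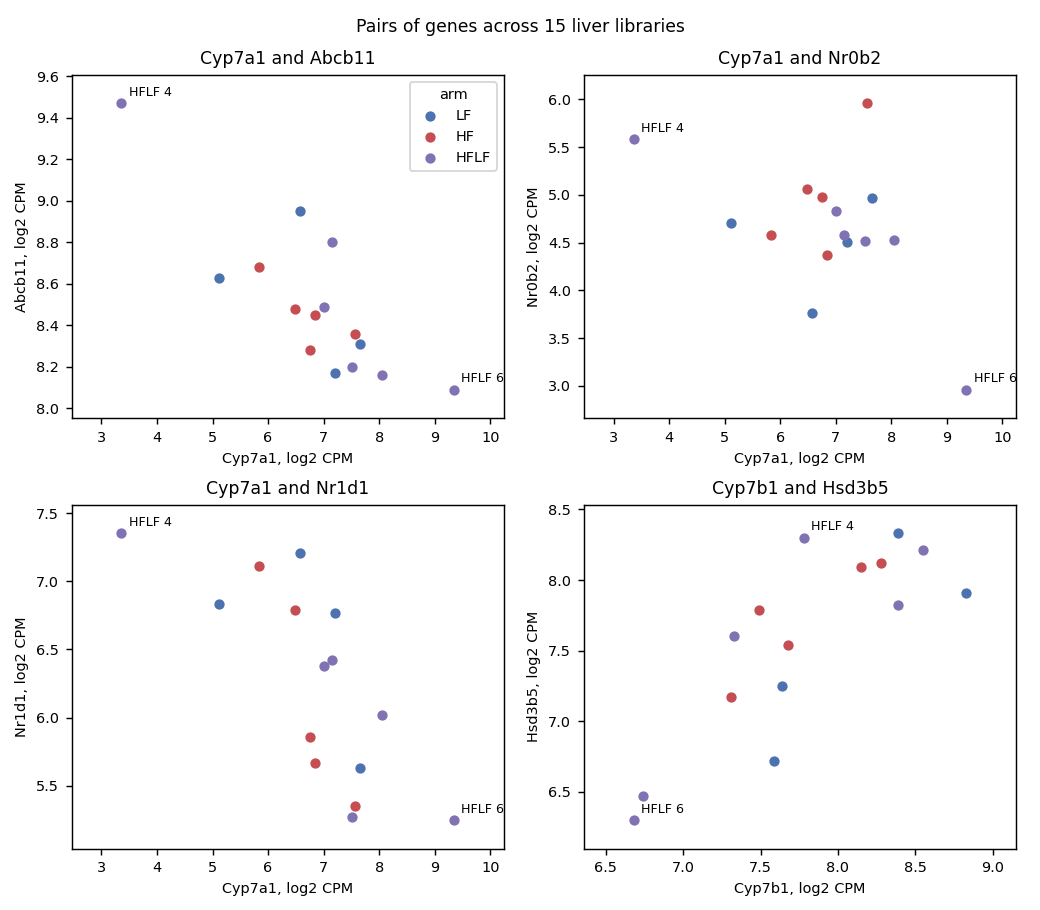
Log2 CPM of Cyp7a1 against Abcb11, Nr0b2 and Nr1d1, and of Cyp7b1 against Hsd3b5, in 15 liver libraries coloured by arm. HFLF 4 and HFLF 6 are labelled and form the ends of the Cyp7a1 axis, and Pearson's r is -0.83, -0.49, -0.75 and 0.81.

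By pattern over the 15 livers, among 12540 genes of at least 1 CPM, genes most like Cyp7a1 included Smim19 (Pearson's r 0.93), Stau2 (0.87), Dnajc21 (0.87) and Mtx2 (0.86). These 4 were highest in HFLF 6, and their r was 0.55 to 0.76 without HFLF 4 and HFLF 6. Their ranges were far narrower than that of Cyp7a1: Smim19 ran from 11.3 to 35.1 CPM. The genes most like Cyp8b1 were Crocc (0.89), Gm26660 (0.83), Zfp746 (0.82), Zfp955b (0.81) and Strada (0.78). Those most like Cyp7b1 were Ang (0.93), C8b (0.91), Tspan9 (0.91), Spats2 (0.91) and Hc (0.90), with r of 0.89 to 0.92 without HFLF 4 and HFLF 6. Ang, a secreted ribonuclease, ran from 107 to 397 CPM, and C8b and Hc encode complement proteins. Nr0b2 was matched best by Zc3h10 (0.81), Slx4ip (0.80), Gpatch3 (0.80), BC024978 (0.79) and Vps33a (0.79). These are the highest values of a search over all genes and carry no test.

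Beyond the 10 genes, 49 of 56 other genes of bile acid synthesis, transport, control and detoxification were measured in liver. Of these, 37 were higher in HF than LF, 41 were higher in HFLF than LF and 27 were higher in HFLF than HF, against the 49.4%, 50.1% and 50.9% of all genes given above. The list was drawn up with earlier results of these data known, and its count is a description. At an unadjusted p below 0.05, 6, 4 and 1 were higher and 0 lower in any comparison, where 262, 386 and 130 of the 13677 liver genes were higher at that level, and 0 passed an adjusted p of 0.05 in edgeR. Ugt1a1, which conjugates bilirubin, had means of 65.9 CPM in LF, 96.4 in HF and 95.6 in HFLF. Its log2 difference was 0.55 ± 0.16 in HF against LF and 0.54 ± 0.15 in HFLF against LF, with edgeR adjusted p of 1.0 and 0.725, and both were below 0.05 unadjusted. The Ugt1a genes share their last exons, so reads of Ugt1a1 may be split with its neighbours.

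The enzymes that activate bile acids before Baat acts showed small differences from LF. Slc27a5, the bile acid CoA ligase, had no overlap between HFLF and LF, as did 0.943% of all liver genes. It was at 822 to 933 CPM in LF, 906 to 1152 in HF and 975 to 1226 in HFLF. Its log2 difference was 0.32 ± 0.10 in HFLF against LF (adjusted p = 0.771 in edgeR) and 0.21 ± 0.10 in HF against LF (adjusted p = 1.0), both below 0.05 unadjusted. Slc27a2, a related ligase, was 0.28 ± 0.11 in HF against LF and 0.30 ± 0.11 in HFLF against LF, also below 0.05 unadjusted, with edgeR adjusted p of 1.0 and 0.858. Scp2, the peroxisomal thiolase of side chain shortening, was 0.19 ± 0.13 and 0.04 ± 0.13, and Acaa1b was 0.19 ± 0.39 and 0.37 ± 0.38. All 9 genes of this list were measured, and 8 were higher in HF (median log2 difference 0.17) and 9 in HFLF (0.18) than in LF.

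Of the ring enzymes, 8 of 9 were measured, with 5 higher in HF (median log2 difference 0.14) and 7 higher in HFLF (0.09) than in LF. Akr1d1, the 5β-reductase, was 0.34 ± 0.36 in HF against LF and 0.63 ± 0.35 in HFLF against LF, and Hsd3b7 was 0.27 ± 0.35 and 0.61 ± 0.34. Neither had an unadjusted p below 0.05.

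Among carriers, the canalicular list (7 of 7 measured) had 6 genes higher in each arm than in LF (median log2 difference 0.09 in HF and 0.06 in HFLF). Abcb1a, a drug efflux pump, was 0.95 ± 0.37 in HF against LF (adjusted p = 1.0 in edgeR) at 4.77 against 2.50 CPM, and in the same comparison Abcc2 was 0.11 ± 0.13 and Atp8b1, a phospholipid flippase, -0.11 ± 0.19. In the basolateral list (6 of 8 measured), 5 were higher in each arm than in LF (medians 0.17 and 0.11). Abcc3, an export pump that returns bile acids to blood, was 0.84 ± 0.44 in HF against LF and 0.97 ± 0.43 in HFLF against LF (adjusted p = 0.868 in edgeR). It stood at 48.8, 156, 41.8 and 130 CPM in LF 1, 2, 3 and 6, at 77.5 to 259 in HF and at 104 to 260 in HFLF. Slco2b1 was 0.21 ± 0.10 in HF against LF (adjusted p = 1.0 in edgeR), Slco1a4 was 0.19 ± 0.42 and Ephx1 was -0.61 ± 0.38.

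Regulators (16 of 17 measured) were mixed, with 10 higher in HF (median log2 difference 0.08) and 11 higher in HFLF (0.12) than in LF. Onecut1, a hepatocyte transcription factor, was 1.26 ± 0.47 in HF against LF (adjusted p = 1.0 in edgeR), at 15.1, 10.5, 6.87 and 2.47 CPM in LF 1, 2, 3 and 6 and 9.33 to 27.1 in HF. Prox1, a corepressor that acts on Cyp7a1, was 0.30 ± 0.13 in HFLF against HF (adjusted p = 1.0 in edgeR). Its highest level, 161 CPM, was in HFLF 4, which was lowest or highest for 30.1% of genes above 10 CPM. Klb, the coreceptor for the intestinal signal that lowers Cyp7a1, was 0.43 ± 0.22 in HFLF against LF (adjusted p = 0.868). Nr1i2, the pregnane X receptor gene, was 0.47 ± 0.26 in HF against LF and 0.34 ± 0.25 in HFLF against LF. Its known target Cyp3a11, which has close copies in the genome, was 0.88 ± 0.54 and 0.88 ± 0.52. Sult2a8, a bile acid sulfotransferase, was 0.06 ± 0.14 and 0.16 ± 0.13. All 3 detoxification genes measured, of 6 listed, were higher in both arms than in LF.

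Markers of position in the lobule were read beside these genes, since Cyp7a1 and Cyp27a1 are known to be higher near the central vein. The 8 pericentral markers summed to 6880 to 9896 CPM in LF, 9132 to 9943 in HF and 8414 to 11489 in HFLF. The 7 periportal markers summed to 5063 to 8994, 4900 to 8457 and 5350 to 8414 CPM. Cyp2e1 made up most of the first sum, at means of 5580 CPM in LF, 7013 in HF and 7305 in HFLF, and Pck1 much of the second, at 4490, 4365 and 4053 CPM. By gene, 7 of 8 pericentral markers were higher in HFLF than LF (median log2 difference 0.25, 3 below 0.05 unadjusted). Of the 7 periportal markers, 0 were higher (median -0.09). Of all liver genes, 50.1% were higher in this comparison and 5.47% were below 0.05 unadjusted. Genes of at least 10 CPM had a median absolute log2 difference of 0.09 in it. Of the 49 pathway genes, 41 were higher. In HF against LF, 6 of 8 (median 0.20) and 1 of 7 (median -0.13) were higher, beside 37 of the 49. The part of either in the differences above was not tested.

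Of the 6 genes in the eWAT table, Cyp27a1 alone had more than a few CPM. Cyp27a1, which also acts in tissues other than liver, was at 107, 87.7, 134 and 130 CPM in LF 2, 3, 5 and 6, at 93.9 to 139 in HF with a mean of 119, and at 102 to 137 in HFLF with a mean of 121. Its log2 differences were 0.05 ± 0.13, 0.08 ± 0.13 and 0.03 ± 0.12 in HF against LF, HFLF against LF and HFLF against HF. Cyp8b1, Cyp7b1, Slc10a1, Slco1b2 and Nr1h4 never exceeded 5.26 CPM, and Slco1b2 had 3 counts or fewer in 6 of 16 libraries and Slc10a1 in 4. Cyp7a1, Abcb11, Nr0b2 and Baat were not in the eWAT table.

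Nr1h4 in eWAT had its 2 highest levels in HF, 5.16 CPM in HF 3 and 5.26 in HF 5, against 1.94 to 3.06 in the other HF libraries. LF 2, 3, 5 and 6 were at 1.49, 2.01, 2.30 and 2.22 CPM, and HFLF ran from 1.15 to 2.78. The log2 difference was 0.78 ± 0.31 in HF against LF (adjusted p = 0.689 in edgeR) and -0.96 ± 0.27 in HFLF against HF (adjusted p = 0.419), both below 0.05 unadjusted. Markers of other cells were read beside these levels. The 5 mesothelium markers summed to 101 to 215 CPM in LF, 41 to 483 in HF and 6.31 to 314 in HFLF. The highest of these sums was in HF 3. The 5 B cell markers summed to 8.23 to 360 CPM in LF, 7.87 to 144 in HF and 7.54 to 13.5 in HFLF. Within HF they were highest in HF 5. Within LF they were highest in LF 2, which had the lowest Nr1h4 of that arm. With 1 library left out in turn, Nr1h4 ranged from 0.62 to 0.9 in HF against LF, where the unadjusted edgeR p reached 0.0717. In HFLF against HF it ranged from -1.14 to -0.8, with an unadjusted edgeR p of at most 0.00975. Without LF 2, HF 3 and HF 5, left out together after the values had been seen, Nr1h4 was 0.23 in HF against LF and -0.53 in HFLF against HF. Since HF 3 and HF 5 are its 2 highest libraries, smaller differences follow from that choice, and the part of the markers was not tested. Both marker lists were also chosen after the values had been seen.

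Slc10a1 in eWAT was 0.339 CPM on average in HFLF, 0.797 in HF and 1.07 in LF, with -1.57 ± 0.57 in HFLF against LF (adjusted p = 0.326 in edgeR) and -1.21 ± 0.52 in HFLF against HF (adjusted p = 0.517). Without HF 5 the latter was -0.55 ± 0.46, and without LF 5 the former was -1.18 ± 0.64. The highest levels were 2.22 CPM in HF 5 and 1.79 in LF 5. These 2 libraries also had the highest hepatocyte marker sums, 383 and 304 CPM, where the arms ran from 57.4 to 304 in LF, 17 to 383 in HF and 15.8 to 92.3 in HFLF. The part of the hepatocyte signal in the Slc10a1 values was not tested. Cyp7b1 in eWAT was -1.20 ± 0.42 in HFLF against LF (adjusted p = 0.303 in edgeR), at 0.768 against 1.83 CPM, with 2.70 and 2.23 in LF 2 and LF 3, and was -0.94 ± 0.46 without LF 2. Of the 6 genes, 0 passed an adjusted p of 0.05 in any eWAT comparison in edgeR (0.0% of all genes in each). Unadjusted, 1, 2 and 2 of the 6 were below 0.05, against 7.04%, 10.8% and 9.3% of all eWAT genes.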

How the data were processed

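Messenger levels were read from the deposited tables of the authors, which hold whole-number counts per gene after genes of low CPM had been left out, per the file headers and names. STAR and the build GRCm38.p6 are named by the submitters' processing notes. How reads were counted, with which annotation and CPM minimum, is not given in the sources used here. RPKM values deposited by the authors were not used, because the length implied for the same gene differed between libraries. The median ratio of longest to shortest was 83.71 in liver and 88.44 in eWAT. Counts and RPKM were matched by row and column order, and the source of the differences was not tested.

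Symbols, coordinates and exon lengths came from GENCODE M21, which matched 13667 of 13677 liver identifiers, and promoters from RefSeq. Samples were grouped by the diet tag. Counts were fitted with edgeR 4.0.16 (R 4.3.3), separately for each tissue, with all 3 arms in 1 quasi-likelihood model and TMM factors. filterByExpr removed 0 genes, and 12 (liver) and 13 (eWAT) residual degrees of freedom were left. P-values were adjusted over all genes by Benjamini and Hochberg at a threshold of 0.05. Log2 CPM for correlations used a prior count of 2. Depth ran from 9225373 to 17268415 counts in liver and 9278083 to 27230205 in eWAT. A floor of 3 counts, which covers counting error only, corresponds to 0.18 to 0.316 CPM in liver. Replicates of an arm correlated at 0.966 to 0.986 in liver, and all pairs differed by more than sampling noise.

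The members and all lists were chosen with earlier results of these data known. Named beside the 10 members were, of the other pathway lists, genes with an unadjusted p below 0.05 in any liver comparison and the 2 largest differences per list and comparison, and for 4 members the 5 genes of highest Pearson's r, of which 1 is not reported here. Alternatives were DESeq2 1.42.0, limma 3.58.1 voom with and without sample weights, other size factors, other filters, only 2 arms, a replicate block and each library left out. Fits were tested on simulated data.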

Additional observations from a re-analysis of the deposited data

Results flagged for a closer look

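In liver, Nr1h4 in HFLF 6 stood apart from its arm, at 166 CPM where the other 5 HFLF libraries lay between 183 and 193 CPM. The gap to the nearest library was 0.67 of the range of the arm, above the critical value for 6 samples. It was 1 of 48 groups of 4 to 6 libraries examined over both tissues, and chance gives about 1 in 20. HFLF 6 is also the liver with the highest Cyp7a1 and Cyp8b1 and the lowest Abcb11 and Nr0b2. Cyp7a1, whose range was by far the widest, was not marked in any arm by this measure.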

How the results depend on the processing

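The limits are the small arms and the spread between animals, which for Cyp7a1 leaves an SE near 0.8. Counts over all liver genes past an adjusted p of 0.05 were 0 in edgeR in each comparison, and DESeq2 gave 1 in HF against LF and 11 in HFLF against LF. In eWAT DESeq2 gave 12, 69 and 52 (HF against LF, HFLF against LF, HFLF against HF), against 0 in edgeR, and leaving out 1 library gave 0 to 13 in HFLF against LF, the 13 without LF 5. Unadjusted, 492, 748 and 255 liver genes were below 0.05 in edgeR. Sample numbers were not used to pair libraries in the main fit. Deviations of same-numbered livers correlated at -0.10 to 0.38 (5 of 13 pairs over 0.1) and those of eWAT at -0.34 to 0.38 (7 of 14). In liver 5 of 14 and in eWAT 5 of 16 libraries correlated best with their own number. The values expected by chance were not computed, so these do not decide whether the numbers pair animals. With the replicate block, 1 liver gene was called in HFLF against LF, and Cyp7a1 was 1.21 there (edgeR adjusted p = 0.271) and 1.14 in HFLF against HF (adjusted p = 1.0), both below 0.05 unadjusted. Values near 0 changed sign, and the cause was not tested. In HF against LF, Cyp7a1 (-0.10) was 0.06 in voom, 0.16 in weighted voom and 0.07 with the replicate block, Slco1b2 (0.04) was 0.00 with library totals alone, and Nr1h4 (-0.03) was 0.01 in weighted voom. In HFLF against LF, Abcb11 (0.08) was -0.15 in weighted voom, -0.13 with the replicate block and -0.11 without HFLF 4 and HFLF 6, and Nr0b2 (0.13) was -0.03, -0.04 and -0.09 in voom, weighted voom and the block. In HFLF against HF, leaving out HFLF 4 and HFLF 6, chosen after seeing the data, gave 0.11 for Cyp7b1 (-0.07), -0.02 for Abcb11 (0.17) and -0.05 for Slc10a1 (0.02), and Abcb11 was -0.01 in weighted voom and -0.10 with the block. In eWAT, leaving out LF 2, HF 3 and HF 5, also chosen after seeing the data, gave -0.09 for Cyp27a1 in HF against LF (0.05) and -0.20 for Cyp8b1 in HFLF against LF (0.06), which was -0.12 with the block. Slco1b2 in HF against LF (0.07) was -0.52 in weighted voom, and Cyp27a1 in HFLF against HF (0.03) was -0.05 with library totals alone. With 1 library left out in turn, HF against LF ranged from -0.41 to 0.27 for Cyp7a1, -0.20 to 0.07 for Abcb11, -0.04 to 0.12 for Slco1b2 and -0.10 to 0.03 for Nr1h4. HFLF against LF ranged from -0.17 to 0.24 for Abcb11, -0.15 to 0.32 for Nr0b2, -0.03 to 0.10 for Nr1h4 and -0.12 to 0.01 for Baat. HFLF against HF ranged from -0.08 to 0.06 for Cyp27a1, -0.30 to 0.08 for Cyp7b1, -0.08 to 0.26 for Abcb11, -0.06 to 0.09 for Slc10a1 and 0.00 to 0.13 for Slco1b2. In eWAT the ranges were -0.05 to 0.14 for Cyp27a1, -1.02 to 0.03 for Slc10a1 and -0.27 to 0.52 for Slco1b2 in HF against LF, -0.20 to 0.44 for Cyp8b1 and -0.03 to 0.16 for Cyp27a1 in HFLF against LF, and -0.03 to 0.08 for Cyp27a1 in HFLF against HF. Relations past an adjusted p of 0.05 were 4, and 2 after arm means were subtracted, 0 without the 2 farthest libraries and 1 without HFLF 4 and HFLF 6. With 1 library left out, r ranged from -0.87 to -0.66 for Cyp7a1 with Abcb11 and from 0.71 to 0.83 for Cyp27a1 with Slc10a1. With the longest transcript as length, Slc10a1 was at 396, Slco1b2 at 283 and Nr1h4 at 90.1 CPM per kb, and Slco1b2 stayed below Cyp27a1. Apart from leaving out 1 library, 541 values kept direction and call, 21 changed sign, 9 correlations lost the call and 12 counts or levels moved.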
